A study of Mus musculus with 6 samples.

Results

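Mitochondrial ribosomal protein genes are described here in eosinophils, a granulocyte of the small intestinal lamina propria, taken from wild-type BALB/c mice and kept in culture for 4 h. Members were all gene symbols of the deposited tables that begin with Mrpl or Mrps followed by a number. They came to 76 of 23283 symbols, 47 Mrpl (large subunit) and 29 Mrps (small subunit). All 76 averaged at least 1 FPKM (fragments scaled to transcript length and to the mapped fragments of the library, a level per length) over the 6 libraries. The lowest were Mrpl17 at 1.96 FPKM and Mrps27 at 2.98 FPKM, and no member lay below that limit. The control group held 3 cultures without added cytokine, and the treated group 3 cultures with 10 ng/ml GM-CSF (granulocyte-macrophage colony-stimulating factor, a cytokine that acts on eosinophils). Strain, tissue, cell type and culture time were shared by both groups, and mapped sequence came to 0.820 to 1.32 gigabases per library. The labels give neither the age of the mice nor the way the cells were isolated. Whether each culture had its own donor mouse is not stated in the labels. The p-values therefore set the difference between groups against variation among these cultures only, and may not extend to other mice.

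Mitochondria keep a ribosome of their own, which translates the few messages of mitochondrial DNA into core subunits of the respiratory chain and ATP synthase. Its RNAs are made inside the organelle, while its proteins are encoded in the nucleus, made on cytosolic ribosomes and imported. Many of these proteins have bacterial homologues, and others are found only in mitochondrial ribosomes. The small subunit reads the message. The large subunit joins amino acids and releases the new chain through an exit tunnel that faces the inner membrane.

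The letter of the symbol does not always give the place of the protein. The products of Mrps18a and Mrps30 sit in the large subunit. The protein of Mrps36 has since been assigned to the 2-oxoglutarate dehydrogenase complex and not to the ribosome. Counts below follow the letter, with counts by place given where they are named.

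Promoters of nuclear genes for mitochondrial proteins are known for sites of NRF1, of ETS-family factors such as GABP, and of YY1. The windows of 300 bases around RefSeq starts (250 before, 50 after; GRCm38.p6) were found for 67 of the 76 members and held 73 promoters. The letters GCGCATGC, an NRF1 motif searched on both strands, stood in 8 of those promoters (11.0%), against 5.64% of promoters of all tested symbols and 2.71% of all promoters. The 8 members are shown because they hold this motif. By name they were 7 of 46 Mrpl promoters (15.2%) and 1 of 27 Mrps promoters (3.70%). Each stretch of 30 bases is written 5′ to 3′ on the gene's strand, and capitals mark GCGCATGC or its reverse complement GCATGCGC; in Mrpl22 they also mark CCGGAAG, an ETS motif.
Mrpl9, chr3:94443298-94443327, plus strand: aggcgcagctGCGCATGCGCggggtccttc
Mrpl10, chr11:97041437-97041466, plus strand: cccagctccacGCATGCGCatagcggccct
Mrpl17, chr7:105811088-105811117, minus strand: agccacgcgccgagttactGCGCATGCgtc
Mrpl22, chr11:58171610-58171639, plus strand: cCCGGAAGccggcctcggactGCGCATGCg
Mrpl32, chr13:14613096-14613125, minus strand: tGCGCATGCGCaagaggggcctGCGCATGC
Mrpl33, chr5:31613921-31613950, plus strand: agccttctaccggaacccGCGCATGCcccg
Mrpl39, chr16:84735350-84735379, minus strand: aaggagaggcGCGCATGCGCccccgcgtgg
Mrps18b, chr17:35916645-35916674, minus strand: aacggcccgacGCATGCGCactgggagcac
In Mrpl9, Mrpl32 and Mrpl39 the run GCGCATGCGC holds the motif on both strands, so these matches overlap each other.

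The ETS motif CCGGAAG was found in 24 of the 73 promoters (32.9%), against 19.6% of promoters of tested symbols and 8.86% of all promoters. The YY1 motif AAGATGGCG stood in 8 (11.0%), against 3.49% and 1.40%. Both lay in a higher share of Mrps than of Mrpl promoters, 40.7% against 28.3% for ETS and 14.8% against 8.70% for YY1. None of these splits by name was tested. Among the 4 members whose RNA differed between the groups, described next, Mrpl53 had the ETS motif. Mrps14 and Mrps36 had none of the 3 motifs in their windows. No promoter window was found for Mrps28, the remaining member, so it was not searched. For Mrpl53 a stretch of 30 bases around the motif is shown with the match in capitals, and for Mrps14 and Mrps36 the 120 bases before the start.
Mrpl53, chr6:83109037-83109066, plus strand: accgcggagccgCCGGAAGcggtccgttcc
Mrps14, chr1:160195095-160195214, plus strand: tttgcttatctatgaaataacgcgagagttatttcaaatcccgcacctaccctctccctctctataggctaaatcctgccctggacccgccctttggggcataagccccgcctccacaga
Mrps36, chr13:100744660-100744779, minus strand: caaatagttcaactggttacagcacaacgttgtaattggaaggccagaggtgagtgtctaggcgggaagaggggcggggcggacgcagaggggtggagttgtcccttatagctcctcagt
A match is a run of letters and not a measured binding site.

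After 4 h with GM-CSF, 4 of the 76 members had fallen and 0 had risen. Those that fell were Mrps28, Mrps36, Mrps14 and Mrpl53, by between 0.21 and 0.40 on the log2(FPKM + 1) scale. By name this was 1 of 47 Mrpl genes and 3 of 29 Mrps genes. The test was limma on that scale over all 10106 symbols with a mean of at least 1 FPKM, with p-values adjusted by Benjamini and Hochberg's method and called under 0.05. It called 21.9% of all tested symbols, 7.68% higher and 14.2% lower, so the 5.26% of members called lower lay under the background. At an unadjusted p under 0.05 there were 10 members (13.2%), beside 34.4% of all tested symbols, and of these 10 members Mrpl52 alone had an estimate above 0. In bulk RNA, fewer cells of a type and less RNA per cell cannot be told apart.

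The whole set moved little. Its median log2 fold change was -0.07, beside -0.05 for all tested symbols. The Mrpl median was -0.06, with 12 genes above 0 and 35 below, and the Mrps median was -0.07, with 7 above and 22 below. With median-of-ratios scaling the Mrpl median turned to 0.0093 and the Mrps median came to -0.0036, while the median of all symbols moved from -0.05 to 0.01. Under that scaling 39 members were above 0, against 19 as deposited. The difference between the subunits' medians stayed between -0.04 and 0.03 over the alternatives tried. Counted by place, the large subunit had 49 genes with 1 called lower and a median of -0.07, and the small subunit 26 genes with 2 called lower and a median of -0.06.

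Precision was enough to bound most members. For 64 of 76 (84.2%) the 95% interval of the log2 fold change lay wholly within 0.5 of 0, against 72.3% of all tested symbols. These were 40 of the Mrpl and 24 of the Mrps genes, or by place 42 large subunit and 22 small subunit genes. Standard errors ran from 0.04 for Mrps26 to 0.24 for Mrps16. Their median was 0.091, against 0.081 for all tested symbols. Medians do not show how many standard errors were large, and what lay behind the higher share of members within 0.5 was not tested. Mrps26, a protein of the small subunit found only in mitochondria, measured 27.7, 28.3 and 29.1 FPKM without GM-CSF and 27.5, 26.8 and 27.6 FPKM with it. Its groups did not overlap, by a narrow gap, and the 95% interval ran from -0.15 to 0.05. Mrps21, the most abundant member, measured 131, 132 and 134 FPKM without and 130.4, 139 and 123 FPKM with GM-CSF, with an interval from -0.14 to 0.11. There the GM-CSF libraries lay on both sides of the untreated ones. Mrpl10, which carries the stalk, measured 17.9, 18.3 and 19.0 FPKM without and 19.0, 20.2 and 18.6 FPKM with GM-CSF, with an interval from -0.06 to 0.18.

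**Figure D1:**
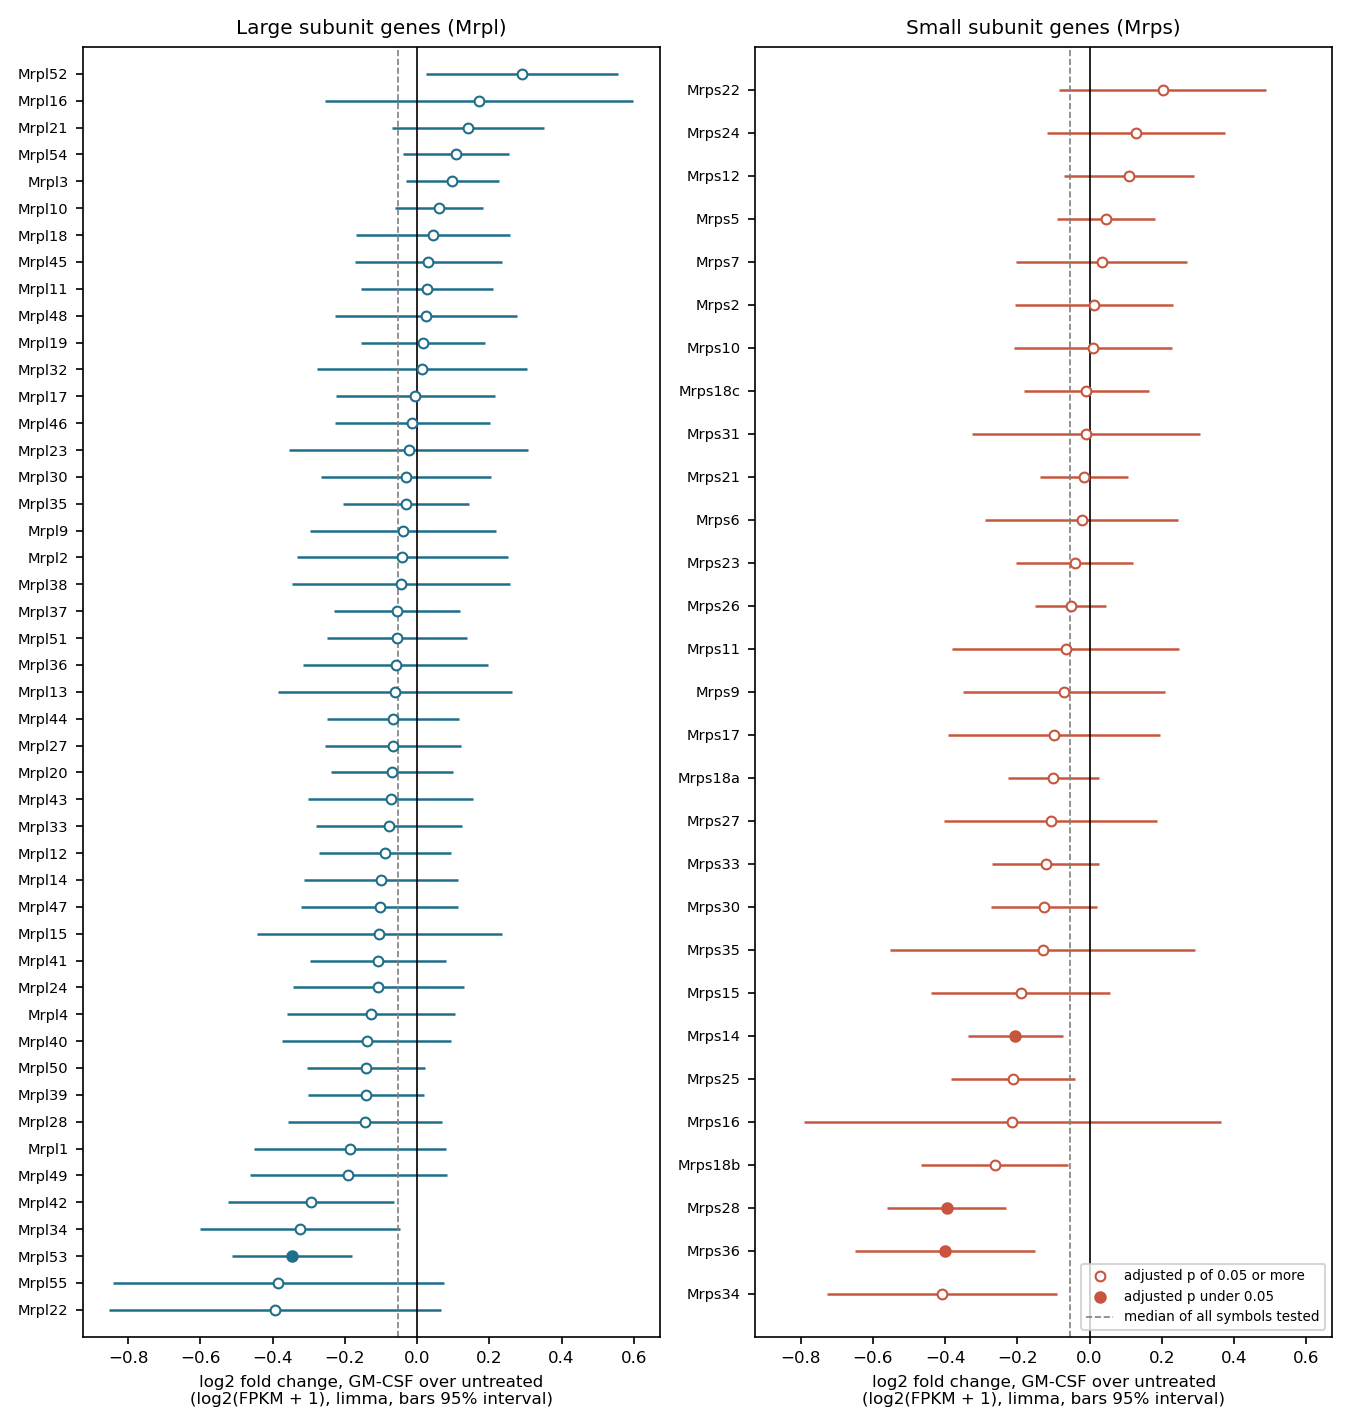
Log2 fold change on log2(FPKM + 1), GM-CSF over untreated, for each of the 47 Mrpl and 29 Mrps genes, with limma's 95% interval. Filled points are the 4 members with an adjusted p under 0.05, all to the left of 0, and the dashed line is the median of all tested symbols at -0.05.

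Summed levels give the same picture per library. The 47 Mrpl genes summed to 946, 988 and 991 FPKM in the untreated libraries and to 919.9, 996 and 921 FPKM with GM-CSF, so the groups overlapped. The 29 Mrps genes summed to 569, 553 and 577 FPKM without and 547, 562 and 516 FPKM with GM-CSF, and overlapped too. In the ratio of the Mrps to the Mrpl sum the untreated libraries stood at 0.602, 0.559 and 0.582 and the GM-CSF libraries at 0.595, 0.564 and 0.560. Means were 0.581 ± 0.0213 (SD, n = 3) and 0.573 ± 0.0189 (SD, n = 3), a gap smaller than either SD. All members together took 0.322% ± 0.0126 (SD, n = 3) of the summed FPKM without GM-CSF and 0.321% ± 0.0128 (SD, n = 3) with it. The abundant genes weigh most in these sums.

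**Figure D2:**
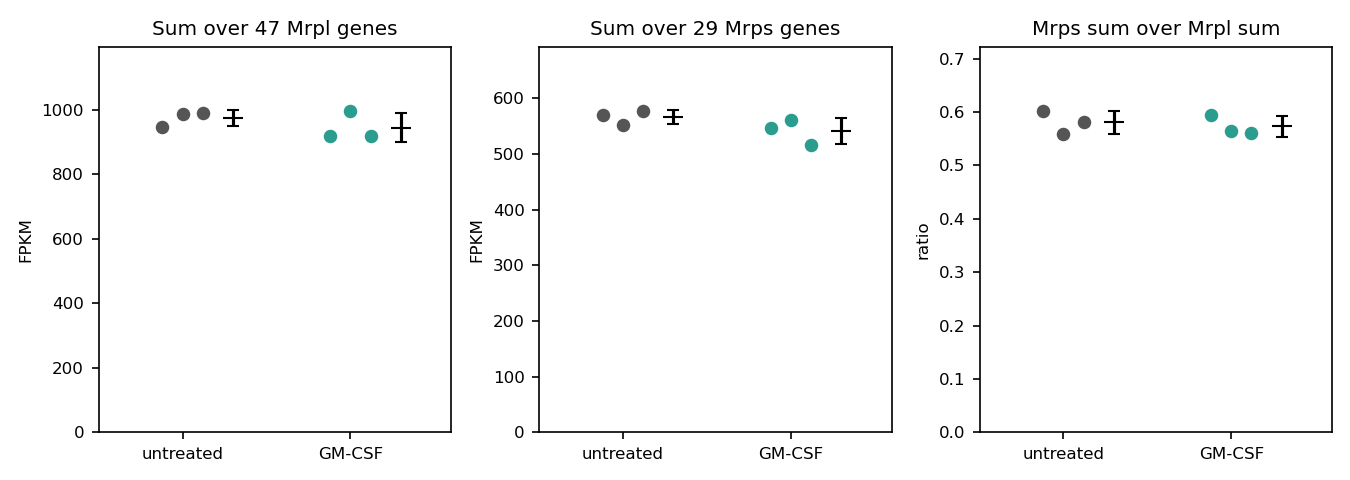
Summed FPKM of the 47 Mrpl genes, summed FPKM of the 29 Mrps genes, and their ratio in each of 6 libraries (points), with the mean and SD of each group of 3 (bars). The 2 groups overlap in all 3 panels, with the ratio between 0.559 and 0.602 throughout.

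Mrps28 encodes a small subunit protein related to bacterial ribosomal protein S1, and it lies on chr3:8802146-8923918 (GENCODE M21, GRCm38). It stood at 4.57, 4.48 and 4.38 FPKM in the untreated libraries and at 3.03, 3.09 and 3.38 FPKM with GM-CSF. Every GM-CSF library was below every untreated one. The log2 fold change was -0.40 (SE 0.07, limma adjusted p = 0.00816). It was the member with the fewest reads, about 68.1 per library on an approximate conversion from FPKM. It remained called in all 16 alternatives that tested it, with adjusted p between 0.00467 and 0.0348.

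Mrpl53 encodes a protein of the stalk base, the part of the large subunit that receives translation factors. Its levels were 26.1, 28.4 and 26.0 FPKM without GM-CSF and 19.3, 20.9 and 22.5 FPKM with it. The groups did not overlap, and the log2 fold change was -0.35 (SE 0.07, limma adjusted p = 0.0139). Without untreated replicate 2 the adjusted p was 0.0533. The gene lies on chr6:83109040-83109939, where the annotation places another protein-coding model, Gm42688, on the same strand.

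Mrps36 stood at 8.64, 9.68 and 11.0 FPKM in untreated libraries and at 6.43, 7.23 and 7.85 FPKM in GM-CSF libraries. These values do not overlap, and the log2 fold change was -0.40 (SE 0.10, limma adjusted p = 0.0370). The call was lost in 9 of 17 alternatives, 4 of them leaving out 1 library (untreated 2 or 3, GM-CSF 1 or 2), with adjusted p in those 4 between 0.0913 and 0.108. The sum is over a pair of transcripts, NM_025369 and NM_001190264. Their division was unstable: NM_025369 was listed at 6.45, 0.00533 and 9.34 FPKM in the untreated libraries and at 2.25, 4.36 and 5.95 FPKM with GM-CSF. Taking the higher transcript alone turned the log2 fold change to 0.21 (limma adjusted p = 0.903).

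Mrps14 encodes a protein of the head of the small subunit. It measured 15.4, 15.4 and 16.7 FPKM without GM-CSF and 13.0, 13.7 and 14.0 FPKM with it. Again the groups did not overlap. Its log2 fold change was -0.21 (SE 0.05, limma adjusted p = 0.0396), the smallest of the 4. That call held in 6 of 17 alternatives and was lost when any 1 library was left out, with adjusted p between 0.0679 and 0.123.

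The next members by adjusted p, all under 0.1 and all with estimates below 0, were Mrps18b (-0.26, limma adjusted p = 0.0749), Mrps34 (-0.41, 0.0764), Mrpl42 (-0.29, 0.0769), Mrps25 (-0.21, 0.0869) and Mrpl34 (-0.32, 0.0996). Mrps34 illustrates their spread: the untreated libraries gave 10.1, 7.65 and 7.06 FPKM and the GM-CSF libraries 6.34, 6.17 and 5.30 FPKM. The groups do not overlap, but untreated replicate 1 lies far from the others. In Mrpl42, GM-CSF replicate 1 at 13.3 FPKM lay just above untreated replicate 1 at 13.2 FPKM.

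Mrpl52 was the member with the largest positive estimate. It stood at 48.1, 60.5 and 62.0 FPKM without and at 74.8, 70.8 and 62.8 FPKM with GM-CSF. Its groups did not overlap, by a gap of less than 1 FPKM, and the log2 fold change of 0.29 (SE 0.11) had a limma adjusted p of 0.119. It was the only member whose GM-CSF libraries all lay above the untreated ones, beside 13.2% of all tested symbols. In 11 members all GM-CSF libraries lay below (14.5%), beside 26.0% of tested symbols. Of the 11, 8 were Mrps genes (27.6% of 29, near the share of all symbols) and 3 Mrpl genes (6.38% of 47). By place 6 were of the small subunit (23.1% of 26) and 4 of the large (8.16% of 49), and Mrps36 counted in neither.

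**Figure D3:**
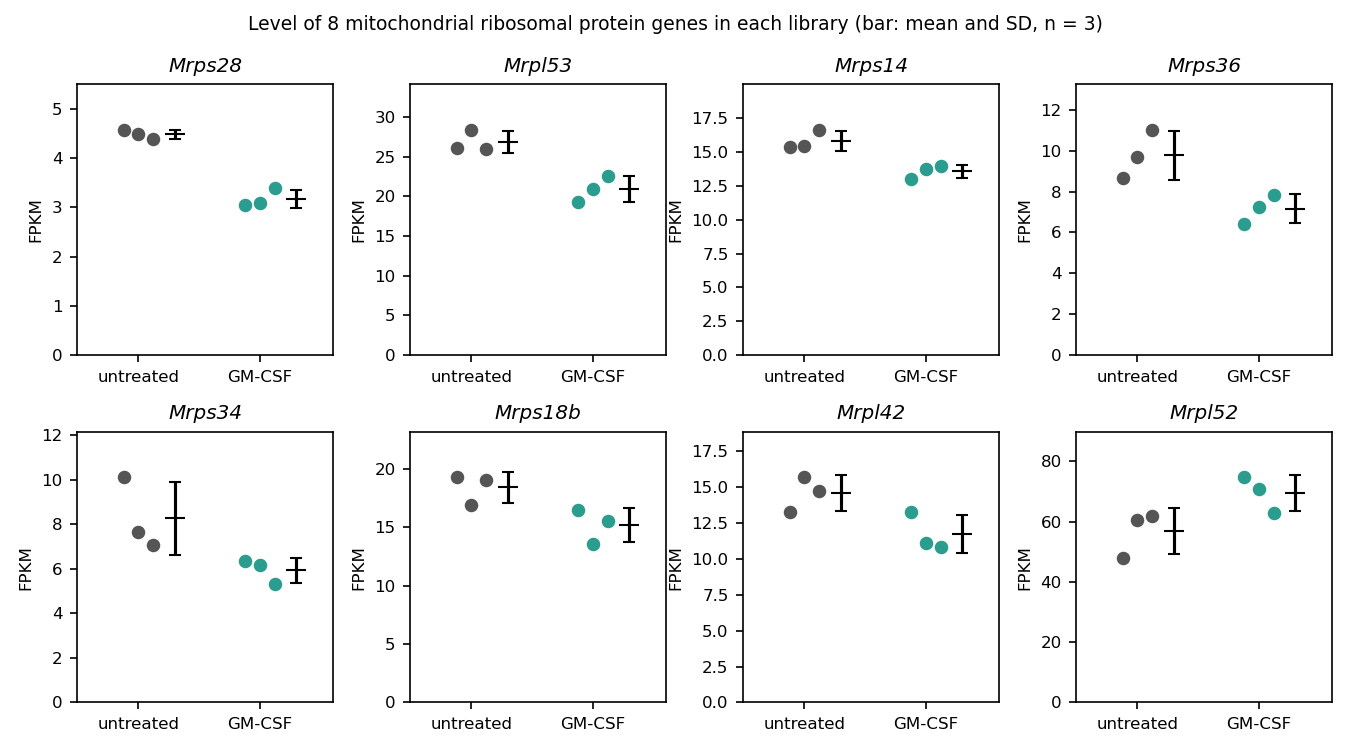
FPKM in each library (points) with the mean and SD of 3 (bars) for the 4 members that fell (top row) and 4 that did not pass the test (bottom row). The groups are apart in every panel other than Mrpl42, and Mrpl52 is the panel with GM-CSF above untreated.

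Sites on the ribosome were read by counts of calls and medians. No site held more than 8 genes, too few to read a difference from the 21.9% of all tested symbols called. The 5 genes of the stalk (Mrpl10, Mrpl11, Mrpl12, Mrpl53 and Mrpl54) had a median of 0.03, and Mrpl53 alone was called. Mrpl12, the stalk protein that binds translation factors, was at 19.2 ± 1.39 FPKM (SD, n = 3) without and 18.0 ± 1.34 FPKM (SD, n = 3) with GM-CSF. None of the 5 central protuberance genes (Mrpl18, Mrpl38, Mrpl40, Mrpl46 and Mrpl48) was called by limma, at adjusted or unadjusted p under 0.05, and their median was -0.01. The 4 genes near the peptidyl transferase centre, where peptide bonds form, were Mrpl2, Mrpl3, Mrpl16 and Mrpl27. They had a median of 0.03 and 0 calls, also at an unadjusted p under 0.05.

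Around the exit tunnel 8 genes had a median of -0.08 and 0 calls, again with 0 at an unadjusted p under 0.05. Mrpl45, which anchors the ribosome at the inner membrane, had a log2 fold change of 0.03 with a 95% interval from -0.17 to 0.23. Mrpl22, whose protein lines the tunnel, had the widest interval of the Mrpl genes: the untreated libraries gave 7.49, 11.0 and 13.9 FPKM and the GM-CSF libraries 7.45, 7.92 and 7.85 FPKM. Untreated replicate 1 lay among the GM-CSF libraries, and without it Mrpl22 passed the test (limma adjusted p = 0.0199). Mrpl55, not at the tunnel, had nearly as wide an interval, from -0.84 to 0.07 around -0.38. Mrpl55 passed the test only without GM-CSF replicate 2 (limma adjusted p = 0.0451).

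In the small subunit, 8 head genes had a median of -0.04 with Mrps14 called (12.5%), beside 21.9% of all tested symbols. The 5 platform genes had a median of -0.02 with 0 called. Mrps12, of the decoding centre, had a log2 fold change of 0.11 with a 95% interval from -0.07 to 0.29. The 3 paralogues Mrps18a, Mrps18b and Mrps18c had log2 fold changes of -0.10, -0.26 and -0.01, none of them called. The widest interval of any member was that of Mrps16, from -0.79 to 0.36, with GM-CSF libraries at 18.3, 37.3 and 22.9 FPKM.

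Grouped by origin, 46 members with a bacterial homologue had a median of -0.05 and 2 called lower. The 28 found only in mitochondria had a median of -0.09 and 1 called lower. Their counts of non-overlapping groups were 3 and 7 lower, both read against the 26.0% of all tested symbols.

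Levels among the members spanned from 1.96 to 132 FPKM, with a median of 14.9, above the 10.9 of all tested symbols. Between 10 and 50 FPKM lay 45 members, 26 were lower and 5 higher. The 5 most abundant were Mrps21 (132 FPKM over the 6 libraries), Mrpl33 (125), Mrps18c (73.0), Mrpl52 (63.2) and Mrpl20 (58.9). Mrps21 and Mrpl33 did not differ beyond their spread, with libraries from 123 to 139 and from 113 to 138 FPKM. Mrps18c followed without overlapping either of them, from 67.8 to 78.7 FPKM. Mrpl52, from 48.1 to 74.8 FPKM, overlapped both Mrps18c and Mrpl20, the latter from 52.4 to 64.0 FPKM. The median level was 16.0 FPKM for Mrpl and 12.5 FPKM for Mrps genes.

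These levels went with transcript length. The leading transcripts measured from 407 to 6712 nt, and across the 76 genes Spearman's rho of level and length was -0.55, given as a description since all points share the same libraries. The shortest leading transcript belonged to the most abundant member, Mrps21, and the longest to the least abundant, Mrpl17. Each deposited FPKM comes with a deposited interval, and for most short transcripts the FPKM lay above the centre of that interval. The median ratio of FPKM to centre was 1.33 for 22 members under 800 nt, 1.15 for 33 members from 800 to under 1500 nt and 1.02 for 21 longer ones. Mrps21 had the highest ratio, 1.90. The exceptions under 800 nt were Mrpl53 and Mrps6, both at a ratio of 0.999, and Mrps36, at 0.844. In all, 31 members lay outside their own interval in all 6 libraries.

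With the interval centre in place of FPKM, Mrpl33 at 74.1 ranked above Mrps21 at 69.2, and rho was -0.48. Order by level therefore depends on which deposited value is read. The comparison of groups did not depend on it for the counts: the same 4 members were called, and the set's median was -0.07.

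**Figure D4:**
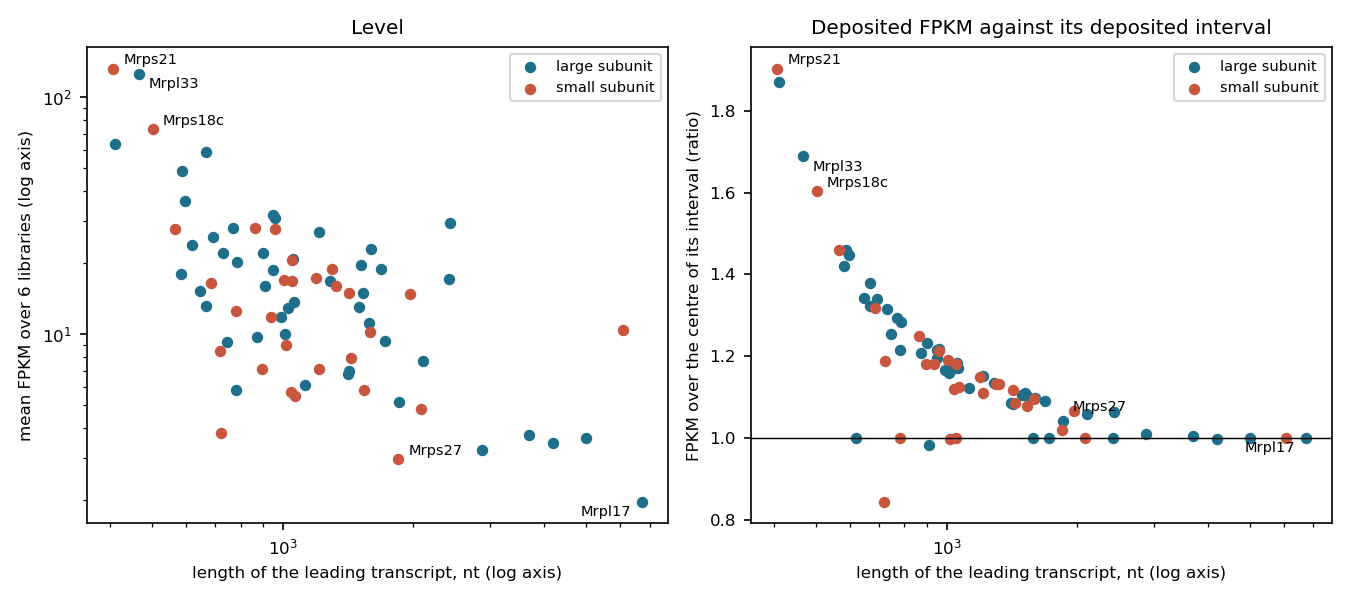
Mean FPKM over 6 libraries (left) and the ratio of FPKM to the centre of its deposited interval (right) against the length of the leading transcript, all on log axes except the ratio, for 76 members. Mrps21 sits highest in both panels, with Mrpl33 next by level and Mrpl52 next by ratio, and members of 1500 nt or more have a median ratio of 1.02.

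Members with several transcripts, 7 in number, were read as sums. Their divisions were not all unstable: in Mrps33, NM_010270 took 91.4% to 99.0% of the sum in each library. In Mrpl48 the transcript NR_003559 was listed at 16.8, 9.46 and 16.6 FPKM without GM-CSF and at 11.4, 9.11 and 0.00272 FPKM with it. Its other transcript, NM_198831, took the rest, up to 17.7 FPKM in GM-CSF replicate 3. The sums stayed between 13.5 and 17.7 FPKM, with a log2 fold change of 0.02 (SE 0.10). With the higher transcript alone the estimate was -1.57 (limma adjusted p = 0.343), and it was called in neither reading.

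On the genome the 76 genes lie on 17 chromosomes, 10 of them on chromosome 11 and 8 on chromosome 17. A start of a gene on the other strand lies within 1000 bp of the start of 32 members, an arrangement common among housekeeping genes. Of these partners 26 were tested, 0 were called higher and 3 lower, beside 7.68% higher and 14.2% lower of all tested symbols. None of the 3 members beside those 3 partners was called, where 5.26% of all members were. The 3 pairs were Mrpl2 (-0.04) with Klc4 (-0.32), Mrpl41 (-0.11) with Pnpla7 (-0.31) and Mrpl51 (-0.06) with Ncapd2 (-0.39). They were named after their values were seen. Mrpl46 and Mrps11 form such a pair with each other and had log2 fold changes of -0.01 and -0.07. Another protein-coding gene on the opposite strand overlaps 23 members. The kit marks strand, but the sources used here do not say whether counting used it, so such reads may not have been told apart.

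Of the 8 members with the NRF1 motif, 0 were called by limma, and Mrps18b alone had an unadjusted p under 0.05. Among all 76 members the shares were 5.26% called and 13.2% at that unadjusted p. Over all tested symbols they were 21.9% and 34.4%. A set of 8 genes is too small to read a difference from the other members. The largest estimates among the 8 were those of Mrpl22 (-0.39) and Mrps18b (-0.26). Nrf1 itself stood at 13.3 ± 0.185 FPKM (SD, n = 3) without and 14.8 ± 0.524 FPKM (SD, n = 3) with GM-CSF, a log2 fold change of 0.14 (limma adjusted p = 0.0902). Of 10 tested regulators of mitochondrial genes, 4 were called lower: Mxi1 (-0.70), an antagonist of Myc, its partner Max (-0.37), the GABP subunit gene Gabpb1 (-0.19) and Yy1 (-0.18). The Gabpb1 call was lost in 9 of 17 alternatives and Yy1's in 6, and the highest transcript alone put Gabpb1 at 0.54 (limma adjusted p = 0.502). Gabpa, the DNA-binding chain of GABP, was at 0.03. Coactivators Ppargc1a and Ppargc1b stayed under 1 FPKM and were not tested.

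Some proteins of the mitochondrial ribosome are filed under other symbols. Of 7 tested, Dap3, a GTP-binding protein of the small subunit, was called lower: 6.32, 7.10 and 6.64 FPKM without and 5.31, 5.78 and 5.34 FPKM with GM-CSF (log2 fold change -0.25, limma adjusted p = 0.0447). That call was lost in 13 of 17 alternatives, with adjusted p up to 0.159. The other 6 were Mrp63 (0.19), Ict1 (0.11), Ptcd3 (-0.02), Aurkaip1 (-0.03), Chchd1 (-0.04) and Gadd45gip1 (-0.07). Ict1, a peptidyl-tRNA hydrolase built into the large subunit, reached 16.8 FPKM in GM-CSF replicate 2 against 10.6 and 11.5 FPKM in the others.

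Among 24 tested assembly factors 2 were called lower and 0 higher. Rbfa, which binds the maturing small subunit, fell most: 19.6, 21.4 and 23.4 FPKM without GM-CSF and 10.4, 9.59 and 9.74 FPKM with it. The groups lay far apart, with a log2 fold change of -1.04 (SE 0.07, limma adjusted p = 0.000214), and Rbfa stayed called in all 17 alternatives. Among the 76 Mrp genes the lowest estimate was -0.41. Trub2, a pseudouridine synthase, had a log2 fold change of -0.34 (limma adjusted p = 0.0167), and its call was lost in 5 of 17 alternatives, with adjusted p up to 0.667. The list's median was -0.07.

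Translation factors (16 tested) had a median of -0.11, with Oxa1l, the insertase that receives new chains at the inner membrane, called lower (-0.26, limma adjusted p = 0.0323). The elongation factor Tufm, the most abundant after Slirp, had an estimate of -0.18 (limma adjusted p = 0.0978). Of 18 aminoacyl-tRNA synthetases and amidotransferase subunits, Gatc was called lower (-0.46, limma adjusted p = 0.0375). Of 13 genes of mitochondrial transcription and RNA processing, Rexo2, an exonuclease that clears short RNAs, rose from 22.1 ± 0.879 to 29.7 ± 3.08 FPKM (SD, n = 3; log2 fold change 0.41, limma adjusted p = 0.0136). In the same list Mterf (-0.50), a transcription terminator, and Hsd17b10 (-0.39), a subunit of mitochondrial RNase P, fell. Calls of Oxa1l and Gatc were each lost in 9 of 17 alternatives and that of Hsd17b10 in 5 (adjusted p up to 0.0584). The Rexo2 call was lost without untreated replicate 1 (limma adjusted p = 0.0514).

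For comparison, 51 of 87 cytosolic ribosomal protein genes were called lower and 0 higher, with a median of -0.23. The count was 28 under median-of-ratios scaling. Respiratory chain and ATP synthase genes, whose mitochondrially encoded partners this ribosome makes, had 7 of 84 called lower, 0 higher and a median of -0.05. Over the alternatives 3 to 7 of them were called lower and 0 to 2 higher. The difference between these groups and the members was not tested.

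**Figure D5:**
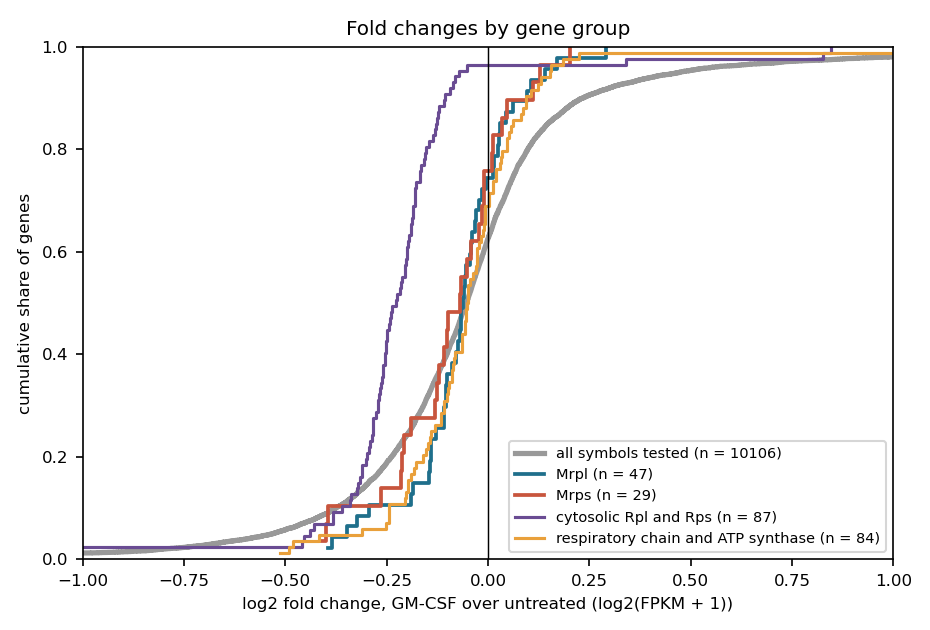
Cumulative share of genes by log2 fold change on log2(FPKM + 1) for all 10106 tested symbols, 47 Mrpl, 29 Mrps, 87 cytosolic ribosomal protein and 84 respiratory chain and ATP synthase genes. The Mrpl and Mrps curves reach a share of 0.5 near -0.06 and -0.07, and the cytosolic ribosomal curve lies further left, at a median of -0.23. Values beyond 1 in either direction are not drawn.

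The cells carried eosinophil markers: Siglec5, the files' symbol for Siglec-F, was at 170.1 ± 11.1 and 170.4 ± 8.93 FPKM (SD, n = 3) and Ccr3 at 289 ± 24.5 and 251 ± 22.8 FPKM (SD, n = 3) without and with GM-CSF. The lowest levels of that list were those of Epx and Prg2. Epx was at 6.62 ± 0.636 and 4.27 ± 0.902 FPKM (SD, n = 3) without and with GM-CSF. Prg2 was at 8.85 ± 1.38 and 8.93 ± 0.280 FPKM (SD, n = 3). Markers of other cells were present, and many were lower with GM-CSF. The 6 B and plasma cell markers summed to between 30.7 and 38.0 FPKM without and between 16.1 and 17.5 FPKM with it, and 5 of 5 tested were called lower. For the 6 T cell markers the sums were 26.9 to 28.0 and 14.6 to 17.1 FPKM, with 4 of 4 tested lower, and for the 10 epithelial markers 80.8 to 85.8 and 53.6 to 66.8 FPKM, with 3 of 7 lower. Of the smaller lists, 1 of 1 tested macrophage and dendritic cell markers (Csf1r), 1 of 2 mast cell markers (Kit) and 2 of 3 neutrophil markers (Retnlg and S100a8) were lower, while Elane and Tpsb2 were listed at 0 in all libraries. The 5 neutrophil markers summed to between 1341 and 1456 FPKM without and between 1039 and 1048 FPKM with GM-CSF. Retnlg alone stood at 1344 ± 60.2 FPKM without and 999 ± 12.3 FPKM with it (SD, n = 3). Pdgfra, the 1 tested stromal marker, was higher. No dividing cell marker reached 1 FPKM. Eosinophil markers themselves were called lower in 4 of 7 (Alox15, Il5ra, Cebpe and Epx). The part of these cells in the fall of the 4 members was not tested.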

How the data were processed

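Polyadenylated RNA of 6 cultures (3 per group) was sequenced from TruSeq Stranded mRNA libraries, per the labels' protocols. Tools named in the submitters' processing notes, without settings, are TopHat, TopHat2, Cufflinks and bcl2fastq 1.8.4, with build mm10. Per the file headers each library has 1 table of 30374 transcripts. The authors deposited FPKM, a coverage signal, an interval with lower and upper bounds (treated here as a score of its own, since FPKM can lie outside it) and the transcript length. Coverage over FPKM gave 0.820 to 1.32 gigabases mapped per library. Read length was taken as about 39.3 nt, the median of coverage times transcript length among transcripts with little coverage. Only products inside a window fixed beforehand entered that median, so the window bounds its value. Read numbers rest on it and are approximate. Count tests were not run, since no deposited value is a count.

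FPKM was summed per symbol. Symbols with a mean of at least 1 FPKM were tested on log2(FPKM + 1) with limma 3.58.1 in R 4.3.3 (empirical Bayes with a trend, two-sided, Benjamini-Hochberg over 10106 symbols, threshold 0.05). That scale understates changes of low genes. Simulated data were used to check the fit. Positions came from GENCODE M21 and promoters from RefSeq; summaries used Python 3.11.15, pandas 2.3.3, scipy 1.17.1 and matplotlib 3.10.9 (figures).

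Members and the 15 gene lists (148 entries, 147 matched) were chosen with earlier results of these data known. The rule for names covered members past the threshold, and per subunit the 4 most abundant and the 2 with the largest standard error. Those nearest the limit of 1 FPKM and a fixed set by ribosomal site were covered too. Of each list it took up to 3 called members per direction. Not every gene it covered is named in the text. Mrpl34, Mrpl42, Mrps11, Mrps25, Mrps34 and other names outside the rule were chosen after their values were seen. Alternatives were pseudocount, filters, 3 scalings, no trend, the replicate number as a block, summing by locus, the highest transcript, place in the ribosome, leaving out each library, and, chosen after seeing the data, the interval centre.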

Additional observations from a re-analysis of the deposited data

How the results depend on the processing

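The calls of all tested symbols ran from 1510 to 2351 over 17 alternatives, against 2212. No Mrpl or Mrps gene was called higher in any of them, beside 776 higher and 1436 lower calls among all symbols as deposited. That split was 1078 to 968 with median-of-ratios scaling, 950 to 1111 after quantile normalization and 791 to 913 with libraries rescaled to the same sum. The count of Mrps genes called lower, 3, was 1 with no filter on low values, 1 with median-of-ratios scaling, 1 with the same sum and 1 with the highest transcript. Leaving out 1 library gave 1 to 2 Mrps and 0 to 3 Mrpl genes lower: for Mrpl 3 without untreated replicate 1, 0 without untreated replicate 2, and 2 if GM-CSF replicate 1 or 2 was dropped. Fewer samples enter these fits. The Mrpl median came to 0.0093 with median-of-ratios scaling, to -0.029 after quantile normalization and to -0.016 with the same sum. When 1 library was left out it lay between -0.111 (without GM-CSF replicate 2) and -0.040 (without GM-CSF replicate 1), against -0.061. The Mrps median came to -0.0036 there, to -0.033 after quantile normalization and to -0.025 with the same sum. It lay between -0.097 and -0.035 when 1 library was left out. With the highest transcript Mrps36 reversed to 0.21, where the division between its transcripts was unstable, and Gabpb1 to 0.54. Mrpl48, not called, went from 0.02 to -1.57 there. The cause of these moves was not tested.

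Libraries with the same replicate number in both groups showed no shared deviation: their deviations correlated at -0.03, 0.05 and -0.02. That cannot settle whether the cultures were paired by donor or preparation, which the labels do not state. With the replicate block 1996 symbols were called, 1 Mrpl and 4 Mrps genes lower. Those were Mrpl53, Mrps18b, Mrps28, Mrps34 and Mrps36.

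Depth was least for Mrps28, which rested on about 68.1 reads per library. Its SE of 0.07 was below the members' median of 0.09, and its untreated SD was 0.0943 around 4.48 FPKM. The scale, log2(FPKM + 1), compresses low values. Such an SE joins the spread of 3 libraries per group with limma's trend over all tested symbols. It does not show that so few reads measured the gene precisely. With a filter of 5 FPKM 68 members were left and Mrps28 was not tested.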
